A study of Mus musculus with 2 samples.

Results

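The IGF binding proteins and the IGF1 axis were followed in mouse liver that lacks the membrane-anchored metalloproteinase MMP-14. The set has 10 genes, chosen by name: the binding protein genes Igfbp1 to Igfbp7, the ligand gene Igf1, its receptor gene Igf1r and the growth hormone receptor gene Ghr. Each has 1 probe, of 16390 named genes on the array, and all 10 were detectable in both channels of both arrays. The choice was made with earlier ratios of these arrays known, and Igfbp3 and Igfbp7 were taken up because they stood among the highest knockout ratios of the fetal array, so their fetal values are a description only.

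The study used 2 oligonucleotide arrays read in 2 colours. The first sets MMP-14 knockout against wild-type whole liver, with RNA of 2 livers mixed per genotype; the sample labels call it P1 (postnatal day 1) and the design text gives a late embryonic stage instead, and the name P1 is kept here. The second sets knockout against wild-type Dlk-positive fetal liver cells (Dlk+CD45-CD71-Ter119-) from E14 (embryonic day 14) livers; each genotype gave 100000 sorted cells, taken from 3 livers. Knockout RNA carried Cy3 and wild-type RNA Cy5 on both arrays, strain and knockout allele are not given in the sources used here, and no array had the dyes exchanged. Each comparison rests on 1 array, so nothing could be tested, and genotype and a dye effect of a single gene cannot be told apart.

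As background, insulin-like growth factors drive fetal and postnatal growth through the IGF1 receptor, a tyrosine kinase. IGF binding proteins hold the ligands in blood and tissue, lengthen their life and limit their access to the receptor. The liver is the main source of circulating IGF1 after birth, under the control of growth hormone, and it secretes IGFBP-1 and IGFBP-2, of which IGFBP-1 is induced by fasting and glucocorticoids and repressed by insulin. IGFBP-3 carries most IGF in adult serum, and IGFBP-7 is a low-affinity relative abundant in vessels and stroma.

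The detection threshold (blank mean plus 2 SD) of the P1 array was 87.0 for knockout and 50.5 for wild type, and that of the E14 array 85.1 for knockout and 44.3 for wild type. Over all genes detectable in both channels the raw reading of knockout over wild type had a median of 1.56 in P1 liver and 2.19 in E14 cells, so raw signals of the 2 channels are read only after loess normalisation. The only measure of error on each array is the SD between different probes of 1 gene, 0.23 log2 units for P1 and 0.12 for E14, over 139 genes each. This covers neither animals nor labelling. The targeted gene, Mmp14, had signals of 104 in knockout and 161 in wild type of P1 liver, with a log2 ratio of -1.3. In E14 cells Mmp14 had 132 in knockout and 131 in wild type, with a ratio of -1.13. In the authors' deposited table Mmp14 stood at -2.83 in P1 liver and -2.13 in E14 cells. How much Mmp14 transcript was left in the knockout is thus not read from these ratios. Dlk1, the gene of the sorting marker, was bright in the sorted cells, with signals of 11869 in knockout and 4971 in wild type. All 15 lung epithelial markers examined were detectable in wild-type P1 liver and 10 in knockout P1 liver, with summed signals of 1654 in the knockout and 44116 in the wild-type channel, and their part in the P1 ratios below was not tested.

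**Figure D1:**
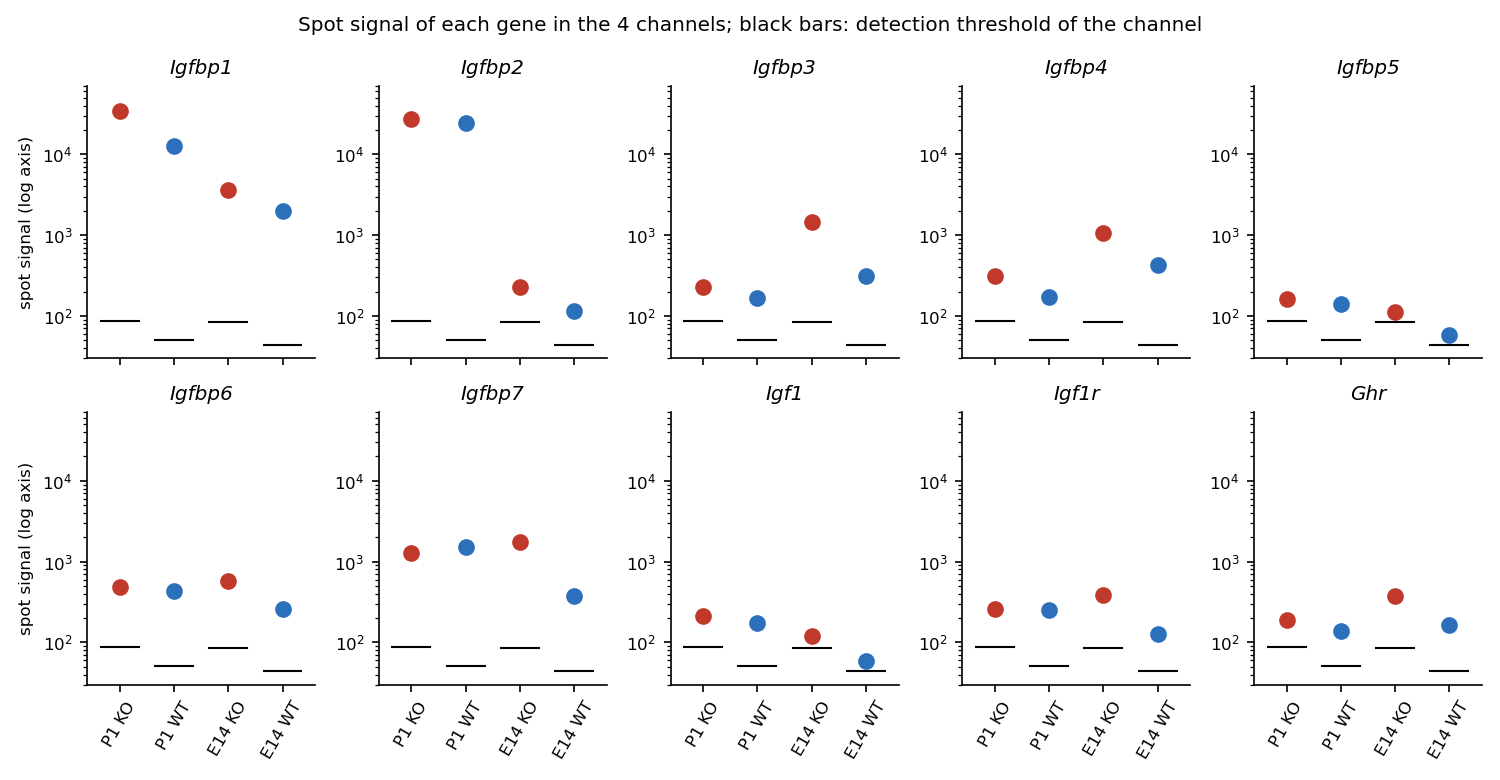
Spot signal (log axis) of the 10 genes in knockout (red) and wild-type (blue) P1 liver and E14 Dlk+ cells, 1 point per channel with no replicates; black bars are detection thresholds. Every point lies above its threshold, Igf1 and Igfbp5 in E14 cells lie close to it, and Igfbp2 has signals of 27332 in knockout and 24480 in wild-type P1 liver against 225 in knockout and 115 in wild-type E14 cells.

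Promoters are shown for Igfbp1, which had the highest P1 ratio of the 10 genes, for its chromosomal neighbour Igfbp3, and for Igfbp7, which stood beside Igfbp3 in E14 cells. On mouse chromosome 11 Igfbp1 and Igfbp3 are adjacent and point towards each other, with 0 RefSeq genes between them, and Igfbp2 and Igfbp5 are arranged the same way on chromosome 1. All 10 genes matched the RefSeq promoter table (GRCm38.p6). The 150 bases before the annotated start are printed 5′ to 3′ on the gene's strand, with matches to 4 motifs on either strand in capitals: AAAACAA, the core of the FOXO and insulin response element, GTTAAT, a core of the HNF1 element, TATAAA and the GC box GGGCGG, with no overlap between matches. The windows are chr11:7197637-7197786 (plus strand) for Igfbp1, chr11:7213924-7214073 (minus strand) for Igfbp3 and chr5:77408046-77408195 (minus strand) for Igfbp7.
Igfbp1: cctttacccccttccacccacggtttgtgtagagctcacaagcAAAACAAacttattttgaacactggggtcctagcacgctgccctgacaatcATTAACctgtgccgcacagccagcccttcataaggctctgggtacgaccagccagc
Igfbp3: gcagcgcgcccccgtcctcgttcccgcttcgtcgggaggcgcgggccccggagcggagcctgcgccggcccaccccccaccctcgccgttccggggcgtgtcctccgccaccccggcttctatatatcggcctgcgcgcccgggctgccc
Igfbp7: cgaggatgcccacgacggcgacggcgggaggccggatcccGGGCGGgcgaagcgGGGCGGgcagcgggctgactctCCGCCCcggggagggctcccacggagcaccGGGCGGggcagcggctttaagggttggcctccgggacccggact

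The Igfbp1 window held AAAACAA from base 107 to base 101 before the start and GTTAAT, on the opposite strand, from base 56 to base 51. AAAACAA occurred in 4.0% of 32851 promoter windows of this length and GTTAAT in 3.71%. The Igfbp7 window held GGGCGG at 4 places, a motif found in 28.6% of windows, and the Igfbp3 window held none of the 4 motifs. The G and C content was 53.3% for Igfbp1, 78.7% for Igfbp3 and 78.0% for Igfbp7. These are matches of letters and no site of binding was measured.

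In P1 liver Igfbp1 and Igfbp2 had ratios of opposite sign. Igfbp1 was higher in the knockout, with signals of 34323 in knockout and 12842 in wild type. Its log2 ratio was 0.63, or 1.55-fold, 0.98 in the authors' deposited table and 1.26 with median centring in place of loess. The knockout reading is exactly a whole number, to all decimals of the file, a kind of reading that occurs only near the top of the range (24 probes of that channel), but it lies below the channel's highest signal of 62045, and the files do not say whether such readings are capped.

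Igfbp2, a major binding protein gene of fetal liver, had signals of 27332 in knockout and 24480 in wild type in P1 liver. Its log2 ratio was -0.64, or 1.56-fold lower in the knockout. In the authors' deposited table it was -0.28, and with median centring 0.0052, so the call ends under both settings. Raw knockout readings exceeded wild-type readings 1.12-fold for Igfbp2 and 2.67-fold for Igfbp1, where the median of the brightest of 4 equal classes of genes was 1.54-fold.

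The most negative P1 ratio of the set was that of Igfbp7. Signals were 1291 in knockout and 1508 in wild type, in a channel pair where most genes read higher in the knockout. The log2 ratio was -0.86 (1.82-fold lower), and -0.71 in the authors' deposited table. Its local background was 87.0% of the spot signal in the wild-type channel, above that of 85.6% of probes, and 63.3% in the knockout channel. Its ratio was 0.84 when normexp took the local background into account and 0.96 when that background was subtracted, so the direction for Igfbp7 in P1 liver turns with the treatment of background.

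Of the remaining binding proteins, Igfbp4 was above 0 in P1 liver and Igfbp3, Igfbp5 and Igfbp6 below, none by 1.5-fold. Igfbp4, whose product is cleaved by the protease PAPP-A, had signals of 308 in knockout and 173 in wild type and a log2 ratio of 0.32. Igfbp6, whose product prefers IGF2, had signals of 489.9 in knockout and 439 in wild type and a ratio of -0.40. Igfbp5, whose product binds extracellular matrix, had signals of 159.9 in knockout and 139.9 in wild type and a ratio of -0.36. The authors' deposited table puts Igfbp5 at -0.68, past 1.5-fold. Igfbp3 had signals of 228 in knockout and 169 in wild type and a ratio of -0.08, within the SD between probes, and its local background in the wild-type channel was 100.2% of the spot signal. When normexp took that background into account the Igfbp3 ratio in P1 liver was 0.66, so no direction is given for it.

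The ligand and receptor genes were all below 0 in P1 liver. Igf1 had signals of 211 in knockout and 174 in wild type, with a log2 ratio of -0.24. Igf1r had 261 in knockout and 249 in wild type, with a ratio of -0.46. Ghr had 188 in knockout and 139.8 in wild type, with a ratio of -0.10, within the SD between probes. In all, 2 of the 10 genes had P1 ratios above 0 and 8 below, with a median of -0.30 against -0.0017 for all 12715 genes detectable in both channels. At least 1.5-fold higher was 1 of the 10 (Igfbp1), where 2.84% of all genes were, while 2 were lower by that factor (Igfbp2 and Igfbp7), where 4.12% were. That makes 3 of 10 past 1.5-fold in either direction, against 6.96% of all genes. Of genes in the brightest of 4 equal classes, 5.88% had a ratio as high as Igfbp1. In that class 6.54% had one as low as Igfbp2 and 3.96% one as low as Igfbp7. The balance changed with the settings, and so did the shares of all genes. With normexp on the local background 3 were higher and 1 lower, where 6.92% and 3.59% of all genes were. With it subtracted 2 and 2 of 9 were, where 18.4% and 14.8% of all genes were. Under median centring the counts were 1 and 0, where 10.2% and 2.52% of all genes were. Without whole-number readings, which leaves out Igfbp1, they were 0 and 2, where 2.82% and 4.05% of all genes were. The authors' deposited table has 1 of the 10 higher, where 11.9% of genes were, and 3 lower, where 12.2% were.

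In the sorted E14 cells, Igfbp3 and Igfbp7 were the binding protein genes with knockout ratios far above the rest. Igfbp3 had signals of 1469 in knockout and 308 in wild type. Its log2 ratio was 0.98, or 1.97-fold, rank 4 from the top of 12705 genes, and 1.03 in the authors' deposited table. Igfbp7 had signals of 1741 in knockout and 379 in wild type, a ratio of 0.93, or 1.90-fold, and rank 5, and stood at 0.95 in the authors' deposited table. The raw knockout reading exceeded the wild-type reading 4.76-fold for Igfbp3 and 4.59-fold for Igfbp7, where the median of the brightest of 4 equal classes of genes was 2.45-fold. Over the 6 alternative settings that can move the value of a gene with 1 probe, the ratio lay between 0.92 and 1.65 for Igfbp3 and between 0.89 and 3.20 for Igfbp7, whose wild-type local background was 92.7% of the spot signal.

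Igf1r was also higher in the E14 knockout, and Igfbp1 lower, both by less than 1.5-fold. Igf1r had signals of 390.2 in knockout and 129 in wild type. Its log2 ratio was 0.40, rank 139 from the top, and 0.49 in the authors' deposited table. Igfbp1 had signals of 3599 in knockout and 1994 in wild type and a ratio of -0.42, rank 47 from the bottom. Under median centring Igfbp1 stood at 0.30, where the median of all genes was 0.28, so it then lay beside the bulk of genes, and with the local background it stood at -0.03 in normexp and -0.11 when subtracted, both within the SD between probes. Of genes in the same of 4 equal classes of brightness, 1.95% had a ratio as high as Igf1r and 1.13% one as low as Igfbp1.

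The other members differed little in E14 cells. Igfbp2 had signals of 225 in knockout and 115 in wild type and a log2 ratio of -0.18. Igfbp6 had 568 in knockout and 261 in wild type and a ratio of -0.12. Igfbp4 (1075 in knockout and 425 in wild type), Igfbp5 (112 and 57.8), Igf1 (120.2 and 58.8) and Ghr (374 and 165) had ratios of 0.07, -0.09, -0.02 and -0.03, all within the SD between probes. Igfbp5 and Igf1 lay at 1.37 and 1.39 times the blank mean in the wild-type channel, so their ratios say little. The signs of Igfbp2, Igfbp4, Igfbp5, Igfbp6, Igf1 and Ghr in E14 cells each turned in at least 1 of these 6 settings. In all, 4 of the 10 genes were above 0 and 6 below, with a median of -0.03 against 0.0068 for all genes. At least 1.5-fold higher were 2 of 10, where 0.307% of all genes were, and both were chosen for it, so nothing is read from this count; 0 of 10 were lower by that factor, where 0.22% were, and 0.527% of all genes lay past it in either direction. The authors' deposited table has the same counts, 2 higher, where 5.38% of genes were, and 0 lower, where 1.22% were.

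**Figure D2:**
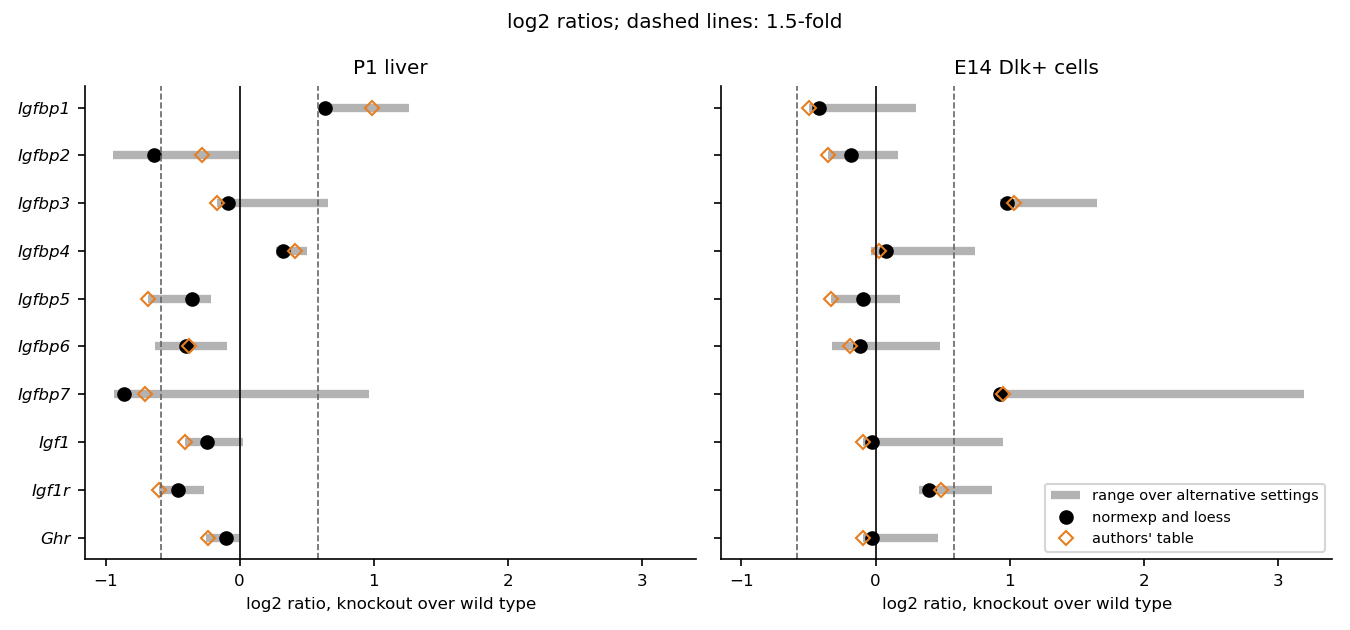
log2 ratio of knockout over wild type for the 10 genes in P1 liver (left) and E14 Dlk+ cells (right): black points are the normexp and loess values, orange diamonds the authors' deposited values, and grey bars the range over up to 10 alternative settings, of which 6 can move a gene with 1 probe and none is a replicate. Igfbp3 and Igfbp7 lie above 1.5-fold in E14 cells over their whole range, while the P1 range of Igfbp7 runs from -0.94 to 0.96.

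Set side by side, 4 of the 10 genes had opposite signs on the arrays. Igfbp7 had a log2 ratio of -0.86 in P1 liver and 0.93 in E14 cells, Igfbp3 -0.08 and 0.98, Igf1r -0.46 and 0.40, and Igfbp1 0.63 and -0.42. The differences, P1 minus E14, were -1.79 for Igfbp7, -1.07 for Igfbp3, -0.85 for Igf1r and 1.06 for Igfbp1, and none could be tested. Of these 8 values, the P1 ratios of Igfbp3 and Igfbp7 and the E14 ratio of Igfbp1 changed sign in at least 1 alternative setting. Igfbp2, Igfbp5, Igfbp6, Igf1 and Ghr were below 0 on both arrays and Igfbp4 above 0 on both.

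**Figure D3:**
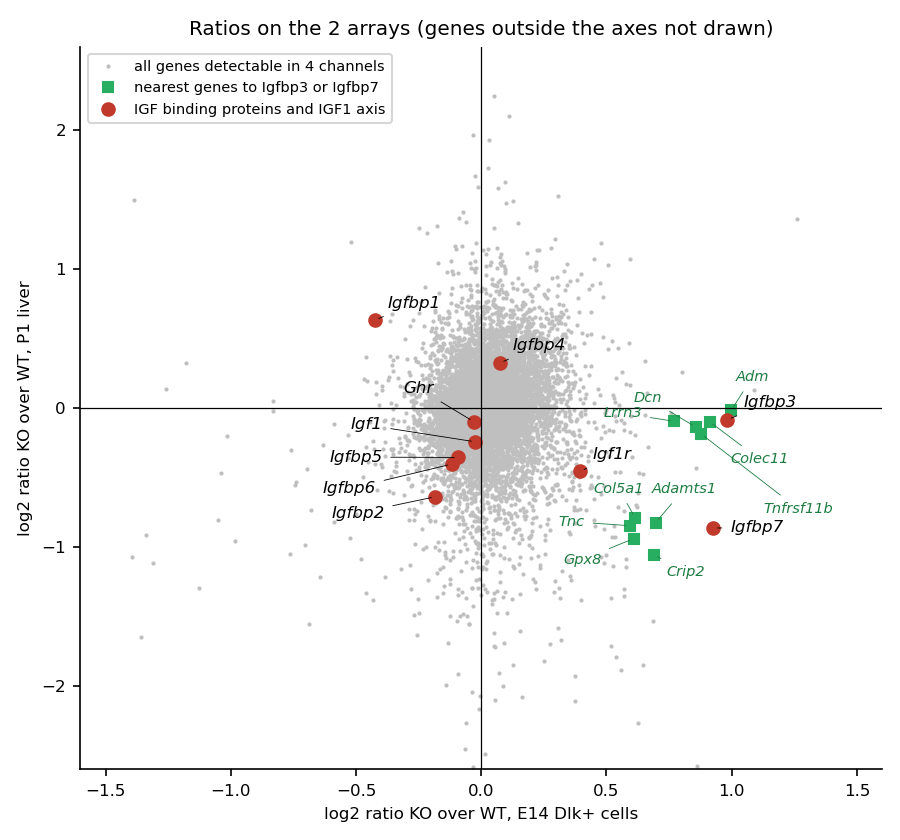
log2 ratio of knockout over wild type in E14 Dlk+ cells (horizontal) and P1 liver (vertical), 1 point per gene detectable in all 4 channels: grey, all genes; red, the 10 genes; green, the 5 genes nearest to Igfbp3 and the 5 nearest to Igfbp7. Igfbp3 and Igfbp7 lie far to the right, at 0.98 and 0.93 in E14 cells, and Igfbp1 at the upper left, at 0.63 in P1 liver and -0.42 in E14 cells.

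By distance over the 2 ratios, the genes nearest to Igfbp3 among 12005 genes detectable in all 4 channels were Adm (0.07 away), Colec11 (0.07), Dcn (0.14), Tnfrsf11b (0.15) and Lrrn3 (0.21). Adm encodes the vasoactive peptide adrenomedullin, Colec11 a collectin, Dcn the proteoglycan decorin and Tnfrsf11b the decoy receptor osteoprotegerin. Nearest to Igfbp7 were Adamts1 (0.23), Crip2 (0.31), Col5a1 (0.32), Gpx8 (0.33) and Tnc (0.33), among them the genes of a matrix protease, a fibrillar collagen and the matrix glycoprotein tenascin-C. The likeness rests on 2 arrays and changes with the settings. With the authors' deposited ratios or normexp on the local background, 0 of these 5 genes were among the 5 nearest for either gene. Under median centring 3 of the 5 were for both, and with an offset of 100 there were 4 for both. These alternatives were added after the data were seen.

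Markers of stellate cells and fibroblasts stood higher beside Igfbp3 and Igfbp7 in the E14 cells. Of 19 such markers, all detectable, 18 had ratios above 0, 6 were at least 1.5-fold higher in the knockout, where 0.307% of all genes were, and the median was 0.46, with summed signals of 31161 in knockout and 9091 in wild type. Colec10, a collectin gene of stellate cells, had the highest ratio among them at 1.09, and Bgn, which encodes the proteoglycan biglycan, had 0.57. Of 14 endothelial markers, 10 were detectable in both channels, with a median of -0.04 and 0 at least 1.5-fold higher. Pecam1 was not detectable in the wild-type channel and Cdh5 in neither. The sum of endothelial signals was 2726 in knockout and 1233 in wild type. Summed signals of marker lists are raw readings of all markers on the array, detectable or not. They carry the raw channel difference, a median of 2.19-fold in E14 cells and 1.56-fold in P1 liver, so they are not read as changes. Of 13 hepatoblast and hepatocyte markers, 7 were at least 1.5-fold lower, with a median of -0.69 and summed signals of 287726 in knockout and 244943 in wild type. Of these 7, all but Ahsg (-0.69) had a whole-number reading near the top of the range in at least 1 channel. Whether such readings are capped is not known, so their ratios are uncertain. Of 8 mesothelial markers 2 were lower by that factor, with Upk3b lowest at -1.01, and of 6 smooth muscle markers 5 were above 0 and 1 at least 1.5-fold higher. In the lists of cholangiocyte, macrophage, erythroid and megakaryocyte markers 0 passed 1.5-fold in the loess values. All 5 megakaryocyte markers were above 0, with a loess median of 0.09 and a median of 1.04 in the authors' deposited table. Past 1.5-fold in that table stood Gp9 (1.84), Itga2b (1.26) and Pf4 (1.04), with loess ratios of 0.20, 0.09 and 0.41. Gp9 and Itga2b lay near the wild-type threshold. More stromal cells in the sorted fraction and more RNA per cell cannot be told apart in bulk RNA, and the part of the stellate markers in the Igfbp3 and Igfbp7 ratios was not tested.

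In P1 liver, markers of several cell types were lower in the knockout. Of 13 hepatoblast and hepatocyte markers, 8 were at least 1.5-fold lower, where 4.12% of all genes were, and 2 higher, with a median of -0.80 and summed signals of 339857 in knockout and 382085 in wild type. Of these 8, all but Fga (-0.80) had a whole-number reading near the top of the range in at least 1 channel, possibly capped. Nothing is read from their count. Of 7 erythroid markers 5 were lower by that factor, with a median of -0.75. Of 12 endothelial markers detectable in both channels, 2 were above 0 and 6 at least 1.5-fold lower, with a median of -0.59 and summed signals of 5951 in knockout and 5920.5 in wild type. Egfl7, which encodes a protein secreted by endothelium, had the lowest ratio of these at -1.54. Of 19 stellate and fibroblast markers, 4 were at least 1.5-fold lower and 5 above 0, with the collagen gene Col3a1 lowest at -1.93. Their median was -0.11, and -0.50 in the authors' deposited table. All 10 lung epithelial markers detectable in both channels were lower, with a median of -4.83 and the surfactant gene Sftpc lowest at -7.85, and 3 of 7 lung stroma markers were at least 1.5-fold lower, with Mfap4 lowest at -4.12. Of 5 smooth muscle markers 0 were above 0 and 2 at least 1.5-fold lower, with a median of -0.36 and Acta2 lowest at -2.11. Of 5 mesothelial markers 1 was above 0 and 2 were lower by that factor, with Podxl lowest at -1.22. Of 6 cholangiocyte markers 2 were above 0 and 2 lower by that factor, with Aqp1 lowest at -1.36. In the macrophage and megakaryocyte lists 0 passed 1.5-fold. The part of these markers in the P1 ratios of the 10 genes was not tested.

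Among 79 other genes of the pathway, 69 were on the array. In P1 liver 56 of them were detectable in both channels, of which 6 were higher in the knockout by 1.5-fold or more, where 2.84% of all genes were, and 2 lower, where 4.12% were. In E14 cells 58 were detectable, of which 0 were higher by 1.5-fold or more, where 0.307% of all genes were, and 1 was lower, where 0.22% were. The medians were -0.05 in P1 liver and 0.02 in E14 cells.

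The genes of FOXO factors, fasting and insulin response were the list with most higher ratios in P1 liver. Of its 12 genes detectable in both channels, 9 were above 0 and 5 at least 1.5-fold higher, with a median of 0.24. Ppargc1a, the gene of a coactivator of gluconeogenic genes, measured by 2 probes, had mean signals of 688 in knockout and 143 in wild type and a log2 ratio of 1.67. Ddit4, an inhibitor of mTOR signalling induced by glucocorticoids, had 425 in knockout and 135 in wild type and a ratio of 1.17. Pck1, which encodes the gluconeogenic enzyme PEPCK, had 20588 in knockout and 6614 in wild type and a ratio of 0.89. Klf15 (765 in knockout and 285 in wild type), a fasting-responsive transcription factor gene, stood at 0.88, and Trib3 (170.2 in knockout and 76.6 in wild type), a pseudokinase gene, at 0.61. In E14 cells all 12 detectable genes of this list lay between -0.13 and 0.03, with Pck1 and Ppargc1a at -0.02. Srebf1, which insulin induces, stood at -0.40 in P1 liver and Irs2, an adaptor of the insulin receptor that FOXO factors induce, at 0.35, neither past 1.5-fold in the loess values. In the authors' deposited table Srebf1 stood at -0.67, past 1.5-fold, and Irs2 at 0.54. That table also puts Trib1 of this list at -0.96 and Sesn3 at 0.60, where the loess ratios were -0.55 and 0.21.

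The other ligands and receptors were below 0 in P1 liver in 5 of 5 detectable genes, with a median of -0.39. Igf2, the fetal ligand, had signals of 14214 in knockout and 16516 in wild type of P1 liver and a log2 ratio of -0.98. In E14 cells Igf2 had 30286 in knockout and 20119 in wild type and a ratio of -0.70, and it was the 1 pathway gene at least 1.5-fold lower there in the loess values. In the authors' deposited table Igf2 stood at -0.66 in P1 liver and -0.76 in E14 cells. Under median centring it stood at -0.37 in P1 liver and 0.06 in E14 cells. With normexp on the local background it stood at 2.80 in P1 liver and -0.24 in E14 cells, and with that background subtracted at 2.93 and -0.05. With an offset of 0 the E14 ratio was -0.54, so the direction of Igf2 turns in P1 liver with the background and the E14 call ends in 4 of 6 settings. Igf2r, which clears IGF2, had 312 in knockout and 284 in wild type of P1 liver and a ratio of -0.39, and 3101 and 1264 in E14 cells with a ratio of 0.02. Insr, the insulin receptor gene, was not detectable in P1 liver in either channel (83.4 and 49.9) and had a ratio of -0.03 in E14 cells.

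Carriers and proteases of binding proteins showed no loess ratio past 1.5-fold on either array. The authors' deposited table has Stc1 at -1.69, Htra1 at -1.72, Htra3 at -1.79 and Mmp7 at 1.04 in P1 liver. In each, 1 channel lay near its threshold. Knockout signals were 88.7 for Stc1, 92.3 for Htra1 and 87.5 for Htra3 against 87.0. Their wild-type signals were 62.7, 72.0 and 60.8 against 50.5. The wild-type signal of Mmp7 was 53.3 against 50.5. The loess ratios were -0.26, -0.36, -0.24 and 0.14. Loess ratios depend on the normexp offset: at 0 in place of 50, 9.37% of all P1 genes were at least 1.5-fold lower, against 4.12%. Neither the deposited nor the loess values settle the size of these ratios. Igfals, which encodes the acid-labile subunit of the serum IGF complex, had signals of 195 in knockout and 149.8 in wild type of P1 liver, with a log2 ratio of -0.14, and 349.8 and 164 in E14 cells, with a ratio of -0.12. The median of the list was -0.22 in P1 liver over 8 detectable genes and -0.05 in E14 cells over 7. Below the growth hormone receptor, 9 genes in P1 liver had a median of -0.07 and 10 in E14 cells 0.07, and 0 of the loess ratios passed 1.5-fold on either array. Socs2, a growth hormone target that inhibits its signalling, stood at -0.43 in P1 liver and 0.32 in E14 cells, and at -0.34 and 0.60 in the authors' deposited table.

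Receptor signalling genes had loess ratios under 1.5-fold with 1 exception, Gab1 in P1 liver. The authors' deposited table also has Tsc1 at 1.49 in P1 liver and Irs1 at 0.87 in E14 cells past it. Both lay near the wild-type threshold, Tsc1 at 51.7 against 50.5 and Irs1 at 44.4 against 44.3. Their loess ratios were 0.17 and 0.02. Gab1, a docking protein gene, had signals of 445 in knockout and 569 in wild type of P1 liver and a log2 ratio of -0.93, and 984 in knockout and 359.9 in wild type of E14 cells with a ratio of 0.19. Of the 20 detectable genes, 7 were above 0 in P1 liver, with a median of -0.05, and 18 in E14 cells, with a median of 0.07. Igf2bp3, an RNA-binding protein gene of fetal tissue, had 468 in knockout and 218 in wild type of P1 liver and a ratio of 0.59, just past 1.5-fold, and 0.18 in E14 cells.

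**Figure D4:**
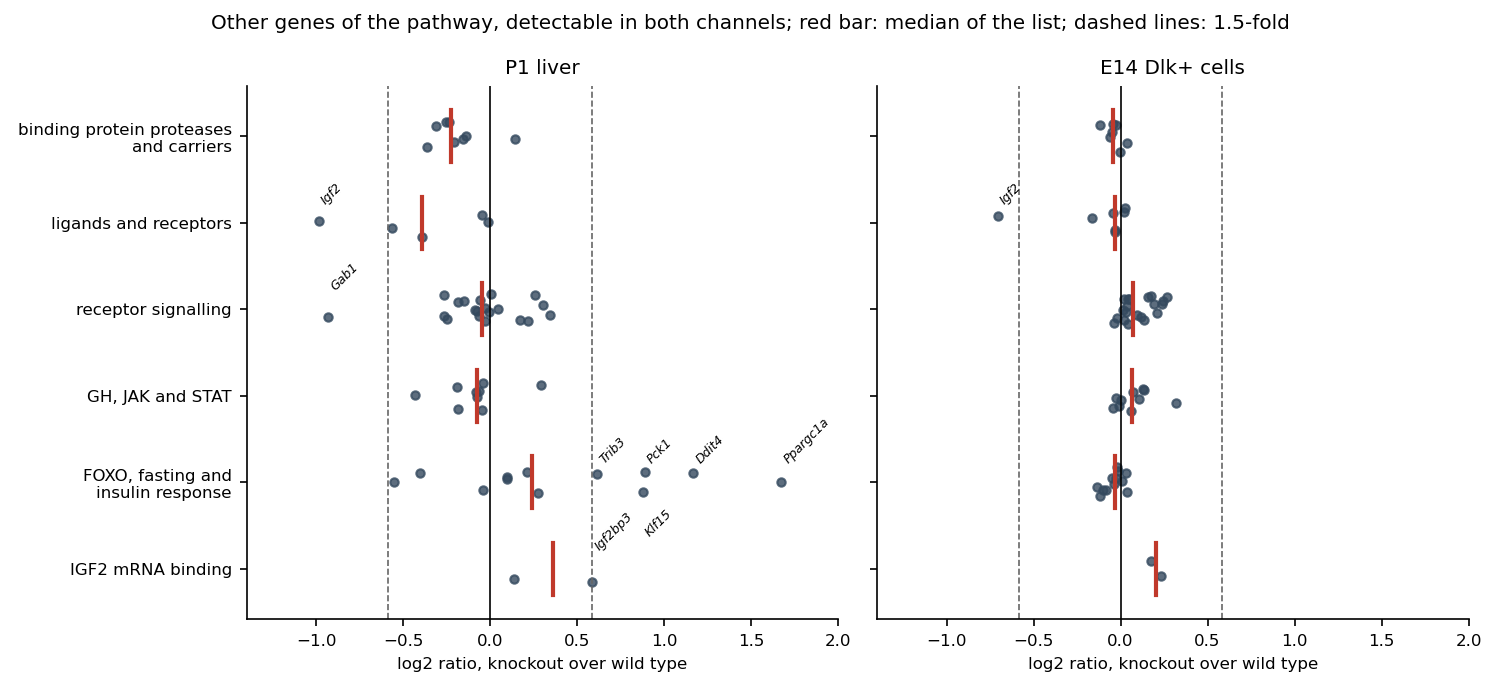
log2 ratio of knockout over wild type of the other pathway genes detectable in both channels, by list, in P1 liver (left) and E14 Dlk+ cells (right); 1 point per gene, with random vertical jitter, and red bars for medians. In P1 liver 5 of 12 genes of FOXO factors, fasting and insulin response lie past 1.5-fold to the right, and in E14 cells Igf2 alone, at -0.70, lies past 1.5-fold.

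Between the arrays, Igfbp1, Igfbp2 and Igf1 stood higher in P1 liver than in E14 cells in both genotypes, and Igfbp3 and Igfbp4 lower. Levels are log2 channel values after normalisation across both arrays, compared within a genotype and thus within a dye. Stage, whole liver against sorted cells, and array cannot be told apart here. In both genotypes 3 of 10 were 2-fold or more higher, where 4.72% of 12005 genes were, and 2 were lower, where 3.96% were. In the knockout channel 3 were higher, where 6.17% of genes were, and 2 lower, where 6.3% were. In the wild-type channel 4 were higher, where 6.66% were, and 2 lower, where 4.81% were.

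Igfbp2 had the largest difference of the 10. Its level was 14.22 in P1 liver and 7.22 in E14 cells of the knockout, and 14.86 and 7.40 in wild type. The difference was 7.0 log2 units (128-fold) in the knockout, rank 4 from the top of all genes, and 7.46 (176-fold) in wild type, rank 3, and with the blank mean subtracted 8.03 and 7.82, which turns the order of the genotypes. Igfbp1 differed by 3.40 in the knockout (14.60 in P1 liver and 11.20 in E14 cells) and by 2.35 in wild type (13.97 and 11.62). Igf1 differed by 1.05 in the knockout (7.41 in P1 liver and 6.36 in E14 cells) and 1.27 in wild type (7.66 and 6.38), with E14 signals near the threshold; after subtraction of the blank mean in place of normexp the differences were 2.17 and 2.35.

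For Igfbp3 the difference, P1 liver minus E14 cells, was -2.29 in the knockout (7.54 in P1 liver and 9.83 in E14 cells) and -1.23 in wild type (7.62 and 8.85). For Igfbp4 it was -1.37 in the knockout (8.0 in P1 liver and 9.37 in E14 cells) and -1.62 in wild type (7.68 and 9.30). For Igfbp7 the knockout level was 10.06 in P1 liver and 10.06 in E14 cells, while its wild-type level was 10.92 in P1 liver and 9.14 in E14 cells. The P1 levels of Igfbp7 carry the ratio of -0.86 whose direction turns with the local background (0.84 and 0.96), so no order of the 4 levels is given. The remaining genes differed by less than 1 log2 unit, with Igfbp5 at 0.70 in the knockout and 0.97 in wild type, Igfbp6 at 0.21 and 0.50, Igf1r at -0.27 and 0.58, and Ghr at -0.69 and -0.63. With the blank mean subtracted Igfbp5 was at 1.77 in the knockout and 1.99 in wild type, past 2-fold, and Ghr at -1.01 in the knockout, past 2-fold, and -1.0 in wild type, just short of it.

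**Figure D5:**
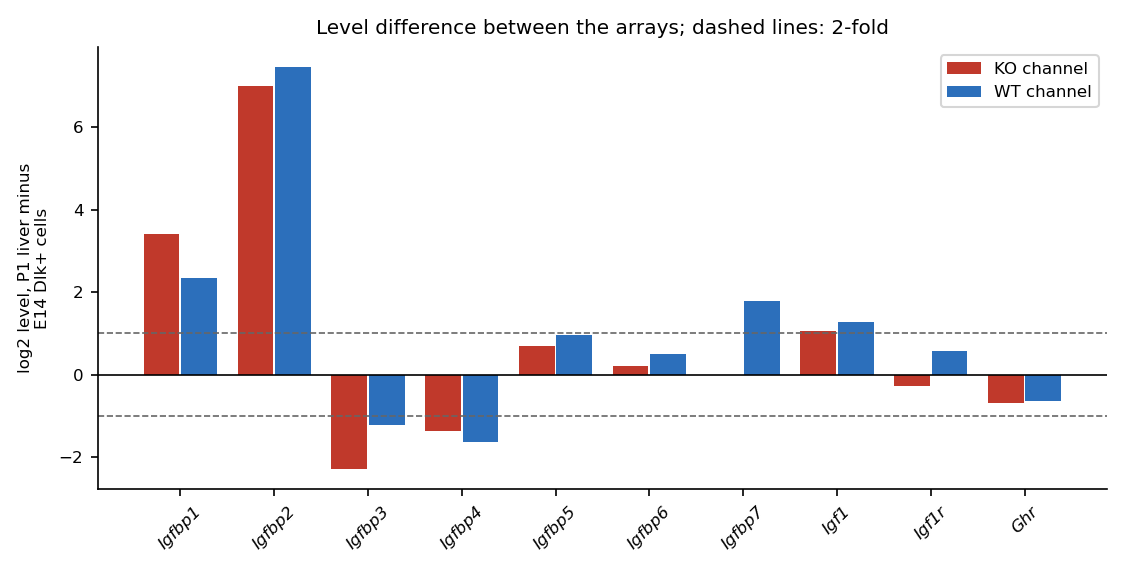
Difference of the normalised log2 level, P1 liver minus E14 Dlk+ cells, in the knockout (red) and wild-type (blue) channels, 1 array each with no error bars; dashed lines mark 2-fold. Igfbp2 exceeds 7 log2 units in wild type and is at 7.0 in the knockout, and Igfbp3 and Igfbp4 are negative in both genotypes. Igfbp7 is at 1.78 in wild type and -0.01 in the knockout, but its P1 ratio changes direction with the local background.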

How the data were processed

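Scanner files and a value table were used. Per the file headers, the deposited files hold spot intensity and local background intensity per channel, unnormalised. The authors' deposited log2 ratios equal the channel ratio after subtraction of the blank mean, centred on the median (largest difference 0.057 for P1 and 0.14 for E14), so their scale, centring and direction are known; the column medians were -2.7e-05 and 7.2e-07. With limma 3.58.1 in R 4.3.3, normexp (offset 50) was run on the spot signals without the local background, which followed the spot (Spearman 0.90 to 0.97), then loess within each array with control spots at weight 0. The 4 flagged E14 probes were left out and probes of a gene averaged. Levels used Aquantile normalisation. Of 23473 probes, 16631 had 1 symbol, 6842 none and 0 several; 3947 symbols were updated. A channel was detectable above the blank mean plus 2 SD, with 5% of the 2736 blank spots removed at each end. The number of arrays limits the precision. Named genes are the 10 genes, the 5 nearest genes, up to 3 markers a list and pathway genes past 1.5-fold (at most 6 a list). Added to these were Igf2, Igf2r, Igfals and Insr. Dlk1, Colec10, Cdh5, Fga, Gp9, Itga2b, Pf4, Srebf1, Trib1, Sesn3, Irs1, Irs2, Socs2, Tsc1, Stc1, Htra1, Htra3 and Mmp7 were named after their values were seen. Members, lists and tests were chosen with earlier results of these data known. The normalisation was tested on simulated data in which only bright probes changed, so the test does not cover changes of weak probes.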

Additional observations from a re-analysis of the deposited data

Results flagged for a closer look

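For 3 genes the log2 ratio had opposite signs on the 2 arrays with a difference of at least 1. The difference, P1 liver minus E14 Dlk+ cells, was -1.79 for Igfbp7, -1.07 for Igfbp3 and 1.06 for Igfbp1. With 1 array per comparison these differences were not tested, and stage and the kind of sample differ between the arrays together. For Igfbp7 the P1 ratio changes sign with the use of the local background (0.84 and 0.96), and for Igfbp3 the P1 ratio of -0.08 lies within the SD between probes of a gene. The Igfbp1 difference rests on a P1 knockout reading near the top of the range.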

How the results depend on the processing

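Of the 10 alternatives for ratios, 4 (the filters, the brightest probe and the whole-number readings) cannot move a gene with 1 detectable probe. Over the other 6, Igfbp1 in P1 liver and Igfbp3 and Igfbp7 in E14 cells, these 2 chosen for these ratios, stayed past 1.5-fold; leaving out whole-number readings removes Igfbp1 in P1 liver. Reversed were Igfbp2 in P1 liver under median centring (0.0052) and Igfbp7 in P1 liver with the local background in normexp (0.84) or subtracted (0.96); the cause was not tested. Members past 1.5-fold numbered 3 in P1 liver and 1 under median centring, and 2 in E14 cells and 4 under median centring. Pathway genes past 1.5-fold in P1 liver numbered 8 of 56, and 16 in the authors' values. They numbered 16 with an offset of 0 and 18 of 55 with the local background subtracted. Shares of all genes grew too, to 11.9% higher and 12.2% lower, 6.84% and 9.37%, and 18.4% and 14.8% in these settings. In E14 cells pathway genes past 1.5-fold numbered 1 of 58, against 18 under median centring and 3 in the authors' values. They numbered 2 with normexp on the local background, 11 with it subtracted and 0 with an offset of 0. All-gene shares there were 5.38% higher and 1.22% lower in the authors' values and 3.83% and 0.244% with normexp on the local background. With it subtracted they were 14.2% and 7.73%, and with an offset of 0 1.5% and 0.763%. Median centring put 24.8% of all E14 genes at least 1.5-fold higher and 0.0394% lower, and 10.2% and 2.52% of P1 genes. Of the ratios and levels of single genes under the alternatives, leaving out the 4 that cannot move one, 105 moved by no more than the SD between probes, 51 by more, and 3 called values changed sign. Signal over background limits Igf1 and Igfbp5 in E14 cells. No paired analysis was possible because each comparison has 1 array.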
